A study of Mus musculus with 11 samples.

Results

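Genes of the circadian clock were followed in whole lacrimal glands of male NOD mice, a strain in which males develop autoimmune inflammation of this tear-producing gland. They were *Arntl*, *Npas2*, *Nr1d1*, *Nr1d2*, *Ciart*, *Dbp*, *Tef*, *Per1*, *Per2* and *Per3*, which are 10 of the 19058 genes in the table of gene counts. They were picked because of how their levels differed between the groups, so their levels and changes are a description and carry no test here. One library was made per mouse, from 3 wild-type (WT) mice, 5 mice of the *Tlr7* KO strain and 3 of the *Ifnar1* KO strain. The *Tlr7* KO strain carries a 2 base-pair deletion made by CRISPR/Cas9 in NOD embryos and lacks the endosomal receptor for single-stranded RNA. The *Ifnar1* KO strain is homozygous for the *em16* allele of a type I interferon receptor subunit. WT and *Tlr7* KO mice were 20 to 22 weeks old, and for the *Ifnar1* KO mice the sources used here give only a wider range over all mice of the study. The study left a further *Ifnar1* KO mouse out of its comparisons because its profile and inflammation resembled WT, and the same WT mice serve as controls for both KO strains.

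In the clock of mammalian cells, BMAL1 (the product of *Arntl*) pairs with CLOCK or NPAS2 and switches on genes that carry E-box elements, among them *Per*, *Cry*, *Nr1d1*, *Nr1d2*, *Dbp*, *Tef* and *Ciart*. PER and CRY proteins then repress BMAL1, while the nuclear receptors encoded by *Nr1d1* and *Nr1d2* (REV-ERBα and REV-ERBβ) repress *Arntl* and *Npas2* through ROR elements. In peripheral tissues of the mouse *Arntl* and *Npas2* therefore peak first, followed by *Nr1d1*, then *Dbp*, *Tef*, *Ciart*, *Nr1d2* and *Per3*, then *Per1* and *Per2*, and *Arntl* is lowest when *Nr1d1* and *Dbp* are high. The hour at which each gland was taken is not given in the sources used here, so no gland is placed on a clock, and differences between WT and KO glands cannot be told apart from differences in the time of collection.

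The elements through which these genes act on each other were looked for in the RefSeq promoter windows (GRCm38.p6), which run from 250 bases before to 50 bases after each start site because these genes regulate each other through them. Of the 10 genes, 9 had at least 1 window. The letters searched, on both strands, were CACGTG for the E-box, CACGTT for its E′ variant, TTATGTAA or TTACGTAA for the D-box bound by DBP and TEF, TAGGTCA for the ROR element core, and TGACGTCA for the cAMP response element. The E-box was in windows of *Tef*, *Per1* and *Ciart* and in 7.15% of all 32851 windows. The E′-box was in that of *Nr1d1* (4.68% of all windows), the D-box in that of *Per3* (1.06%), the ROR element core in 1 of the windows of *Arntl* (2.61%), and the cAMP response element in none of the members' windows (1.79% of all). The windows of *Dbp*, *Nr1d2* and *Npas2* held none of these letters. The matches are shown here in capitals, on the strand of the gene, and a match describes letters only.
*Ciart*, 3 E-boxes, chr3:95882252-95882359, minus strand: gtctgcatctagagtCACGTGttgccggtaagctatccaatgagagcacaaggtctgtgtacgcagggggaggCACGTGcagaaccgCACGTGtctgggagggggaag
*Per1*, E-box, chr11:69098768-69098803, plus strand: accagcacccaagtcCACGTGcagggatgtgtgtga
*Tef*, E-box of the upstream start site, chr15:81802531-81802566, plus strand: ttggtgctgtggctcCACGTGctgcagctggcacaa
*Tef*, E-box of the downstream start site, chr15:81811261-81811296, plus strand: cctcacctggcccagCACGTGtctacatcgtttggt
*Nr1d1*, E′-box read on the other strand, chr11:98775385-98775420, minus strand: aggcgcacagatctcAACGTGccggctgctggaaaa
*Per3*, 2 D-boxes, chr4:151044801-151044885, minus strand: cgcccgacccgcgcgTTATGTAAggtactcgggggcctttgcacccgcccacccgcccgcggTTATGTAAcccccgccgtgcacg
*Arntl*, ROR element core, chr7:113207531-113207557, plus strand: aggcagaaagTAGGTCAgggacggagg

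*Arntl* was high and *Nr1d1*, *Dbp*, *Tef*, *Per3* and *Nr1d2* were low in WT, and the reverse held in all 8 KO glands. Of the 10 genes, 7 had *Tlr7* KO values that did not overlap with WT (5 higher and 2 lower), where 30.8% of the 13937 genes tested did so (16.6% higher and 14.2% lower). A gene was tested if it had at least 30 counts in the WT mice together, which all 10 members had. In *Ifnar1* KO glands 7 did not overlap with WT (6 higher and 1 lower), against 41.8% of all genes tested (20.7% higher and 21.1% lower). Relative to WT the members had a median log2 fold change of 1.03 for the *Tlr7* KO strain and of 0.95 for the *Ifnar1* KO strain, beside -0.04 and -0.02 over all genes tested. These shares and medians are not evidence about the members, since the members were chosen from the same comparisons.

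Libraries held 20512315 to 28814250 counts assigned to genes, and levels are given as CPM, the counts divided by a library size scaled with TMM. Fold changes and their standard errors (SE) come from edgeR fits across all genes tested. As a check of labels, *Tlr7* was at 2.94, 1.52 and 2.7 CPM in WT, 0.765, 0.782, 0.949, 0.494 and 0.897 in *Tlr7* KO and 0.612, 0.822 and 0.251 in *Ifnar1* KO glands. *Ifnar1* was at 15.1, 10.5 and 15 CPM in WT, 9.95, 11.2, 9.38, 8.94 and 8.34 in *Tlr7* KO and 8.34, 9.08 and 9.63 in *Ifnar1* KO glands. Each gene was lower in its own KO strain than in WT and also in the other, so neither tells the KO strains apart. The summed level of 8 lymphocyte markers was 70.49 to 253.5 CPM in WT, 11.09 to 61.02 in *Tlr7* KO and 3.683 to 28.12 in *Ifnar1* KO glands, with *Ms4a1* at 0 in *Ifnar1* KO 3. The sum of 9 gland epithelial markers, all of them detected in every mouse, was 1024 to 1258 CPM in WT, 1509 to 1567 in *Tlr7* KO and 1504 to 1725 in *Ifnar1* KO glands. The sum of 5 skeletal muscle markers was 350.9, 252.8 and 247.5 CPM in WT 1, WT 2 and *Tlr7* KO 4 and 9.86 CPM or less in the other mice. The sum of 5 salivary gland markers was 3151, 2745 and 223.6 CPM in WT 3, *Ifnar1* KO 2 and *Ifnar1* KO 1 and 11.34 CPM or less elsewhere. The sum of 5 adipocyte markers was 11.01 to 13.74 CPM in WT and 2.093 to 20.77 CPM in KO glands. In whole tissue, fewer cells of a type and less RNA per cell cannot be told apart, and the part of these tissues in the differences described here was not tested.

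*Arntl*, which encodes the activator BMAL1 (chr7:113207465-113314126, GRCm38), was lower in both KO strains than in WT. It was at 1.91, 11.4 and 2.38 CPM in WT 1 to WT 3. In *Tlr7* KO 1 to 5 it was at 0.459, 0.695, 0.494, 0.494 and 0.581 CPM, and in *Ifnar1* KO 1 to 3 at 0.885, 0.56 and 0.46 CPM. Every WT gland lay above every KO gland, and WT 2 stood well above the other WT mice. The fitted level was 9.48-fold lower in *Tlr7* KO (log2 fold change -3.24, SE 0.563) and 8.12-fold lower in *Ifnar1* KO (-3.02, SE 0.748). Without WT 2 these log2 fold changes were -1.98 and -1.77. The KO values rest on 11 to 26 counts per gland, and the SE reflects the spread between these mice as well as counting error.

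*Npas2*, whose product can take the place of CLOCK as partner of BMAL1 (chr1:39193731-39363236), was barely detected, with 1 to 20 counts per gland. Its levels were 0.137, 0.843 and 0.273 CPM in WT and ran from 0.0435 to 0.264 CPM in *Tlr7* KO (median 0.115) and from 0.112 to 0.272 CPM in *Ifnar1* KO glands. WT 2 was again the highest mouse, as for *Arntl*, while WT 1 lay within the range of the KO glands. The log2 fold changes were -1.54 (SE 0.685) and -1.23 (SE 0.779), and without WT 2 the gene fell under the filter on WT counts and had no value.

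**Figure D1:**
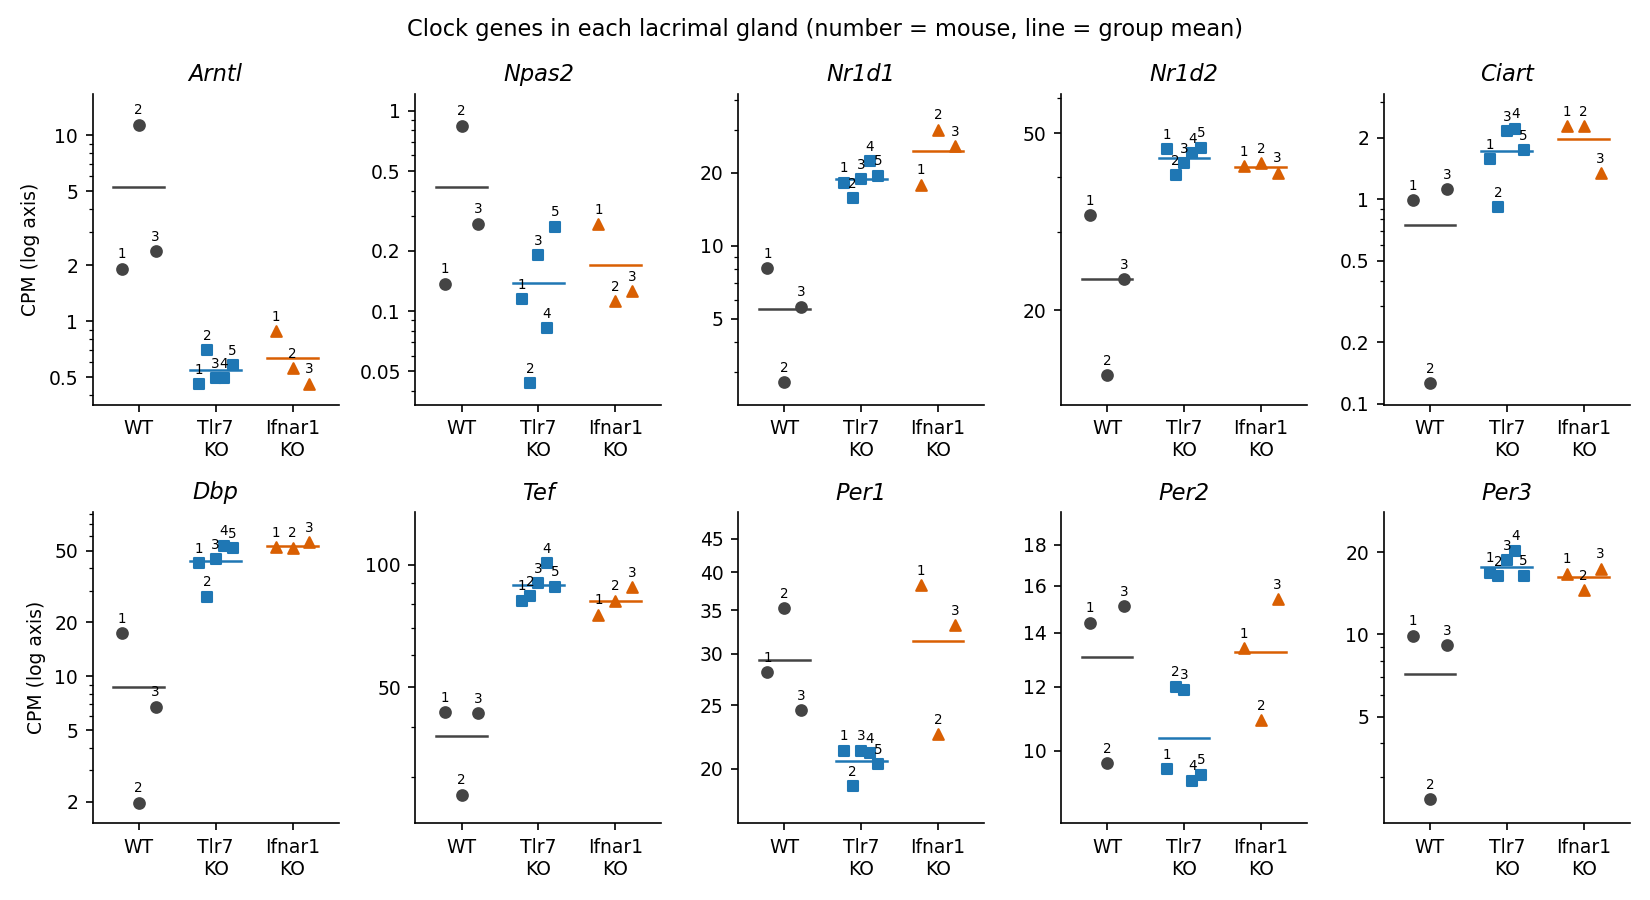
Level of each clock gene in each gland (CPM on a log axis), by group, with each point numbered by mouse and a line at the group mean. Arntl lies higher in WT (1.91 to 11.4 CPM) than in any KO gland (0.459 to 0.885 CPM), while Dbp, Tef, Per3, Nr1d1 and Nr1d2 lie lower, with WT 2 the lowest mouse for each of those 5.

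Among the repressors, *Nr1d1* (REV-ERBα, chr11:98767932-98775333, with the E′-box shown above) was at 8.07, 2.74 and 5.6 CPM in WT. It was at 18.2, 15.7, 18.8, 22.4 and 19.5 CPM in *Tlr7* KO 1 to 5 and at 17.9, 30.2 and 25.8 CPM in *Ifnar1* KO 1 to 3. The lowest KO gland, *Tlr7* KO 2, was above the highest WT gland. The level was 3.42-fold higher in *Tlr7* KO (log2 fold change 1.77, SE 0.277) and 4.4-fold higher in *Ifnar1* KO than in WT (2.14, SE 0.376), and the log2 fold changes were 1.47 and 1.82 without WT 2.

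*Nr1d2* (REV-ERBβ, chr14:18204054-18239127) followed the same order with a smaller range. It was at 32.7, 14.3 and 23.5 CPM in WT, at 40.3 to 46.4 CPM in *Tlr7* KO (median 45.1) and at 42.2, 42.8 and 40.8 CPM in *Ifnar1* KO glands. The KO glands lay within a narrow band, with a highest-to-lowest ratio of 1.15 in *Tlr7* KO and 1.05 in *Ifnar1* KO beside 2.29 in WT. The log2 fold changes were 0.91 (SE 0.214) and 0.81 (SE 0.269), and 0.65 and 0.55 without WT 2.

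*Ciart*, which encodes the repressor CHRONO (chr3:95878503-95882251) and has 3 E-boxes in the window shown above, was expressed at 3 to 67 counts per gland. Its levels were 0.992, 0.126 and 1.12 CPM in WT, 1.57, 0.913, 2.16, 2.22 and 1.74 CPM in *Tlr7* KO, and 2.28, 2.28 and 1.34 CPM in *Ifnar1* KO glands. All *Ifnar1* KO glands were above WT, whereas *Tlr7* KO 2 lay below WT 1 and WT 3. The log2 fold changes relative to WT were 1.16 (SE 0.523) in *Tlr7* KO and 1.33 (SE 0.614) in *Ifnar1* KO, and 0.7 and 0.86 without WT 2.

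The output genes *Dbp* and *Tef* encode PAR bZIP transcription factors that bind D-boxes and carry clock time to metabolic genes. *Dbp* (chr7:45705088-45710203) was at 17.4, 1.98 and 6.78 CPM in WT. It was at 42.6, 27.8, 44.8, 53.4 and 51.5 CPM in *Tlr7* KO and at 52.4, 52 and 55.6 CPM in *Ifnar1* KO glands. No WT gland reached the lowest KO gland, and the *Ifnar1* KO glands differed by a ratio of only 1.07 from lowest to highest, while the WT glands differed by 8.78. The level was 5-fold higher in *Tlr7* KO (log2 fold change 2.32, SE 0.539) and 5.98-fold higher in *Ifnar1* KO than in WT (2.58, SE 0.63), and the log2 fold changes were 1.87 and 2.12 without WT 2. Without WT 1 they were 3.28 and 3.54, and with scaling by library size only the value in *Tlr7* KO was 1.68.

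*Tef* (chr15:81802421-81826863) was at 43.4, 27.2 and 43.1 CPM in WT, at 81.6, 83.7, 90.2, 101 and 88.3 CPM in *Tlr7* KO, and at 75.4, 81.5 and 88 CPM in *Ifnar1* KO glands. The groups of both KO strains lay wholly above WT. The log2 fold changes were 1.23 (SE 0.159) and 1.09 (SE 0.201), the former with the smallest SE among the members that were higher in *Tlr7* KO. Without WT 2 they were 1.03 and 0.89.

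The 3 *Per* genes, whose products form the repressing complex with CRY proteins, did not share a direction. *Per3* (chr4:151003652-151044665), with the pair of D-boxes shown above, was at 9.88, 2.49 and 9.15 CPM in WT, at 16.3 to 20.2 CPM in *Tlr7* KO (median 16.8) and at 16.7, 14.5 and 17.4 CPM in *Ifnar1* KO glands. It was higher in every KO gland than in every WT gland, as *Dbp* and *Tef* were. The log2 fold changes were 1.28 (SE 0.343) and 1.14 (SE 0.435), and 0.89 and 0.74 without WT 2.

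*Per1* (chr11:69095217-69109960), an early responder to hormones and activity as well as a clock gene, was at 28.1, 35.2 and 24.6 CPM in WT. It was at 21.3, 18.8, 21.3, 21.1 and 20.3 CPM in *Tlr7* KO and at 38.2, 22.6 and 33.2 CPM in *Ifnar1* KO glands. *Tlr7* KO glands therefore lay below every WT and every *Ifnar1* KO gland, while *Ifnar1* KO and WT glands overlapped. The log2 fold change was -0.51 (SE 0.109) in *Tlr7* KO and 0.08 (SE 0.217) in *Ifnar1* KO relative to WT, and the latter turned to -0.17 with scaling by library size only. Without WT 2 the values were -0.36 and 0.22.

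*Per2* (chr1:91415982-91459324), the latest of these genes to peak, was at 14.4, 9.65 and 15.1 CPM in WT, at 9.49, 12, 11.9, 9.18 and 9.34 CPM in *Tlr7* KO, and at 13.4, 10.9 and 15.4 CPM in *Ifnar1* KO glands. The groups overlapped in both comparisons with WT. WT 2, which had the lowest *Per3* and *Dbp*, was also the lowest WT mouse for *Per2*. The log2 fold changes were -0.33 (SE 0.161) and 0.00 (SE 0.212), and -0.51 and -0.18 without WT 2.

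**Figure D2:**
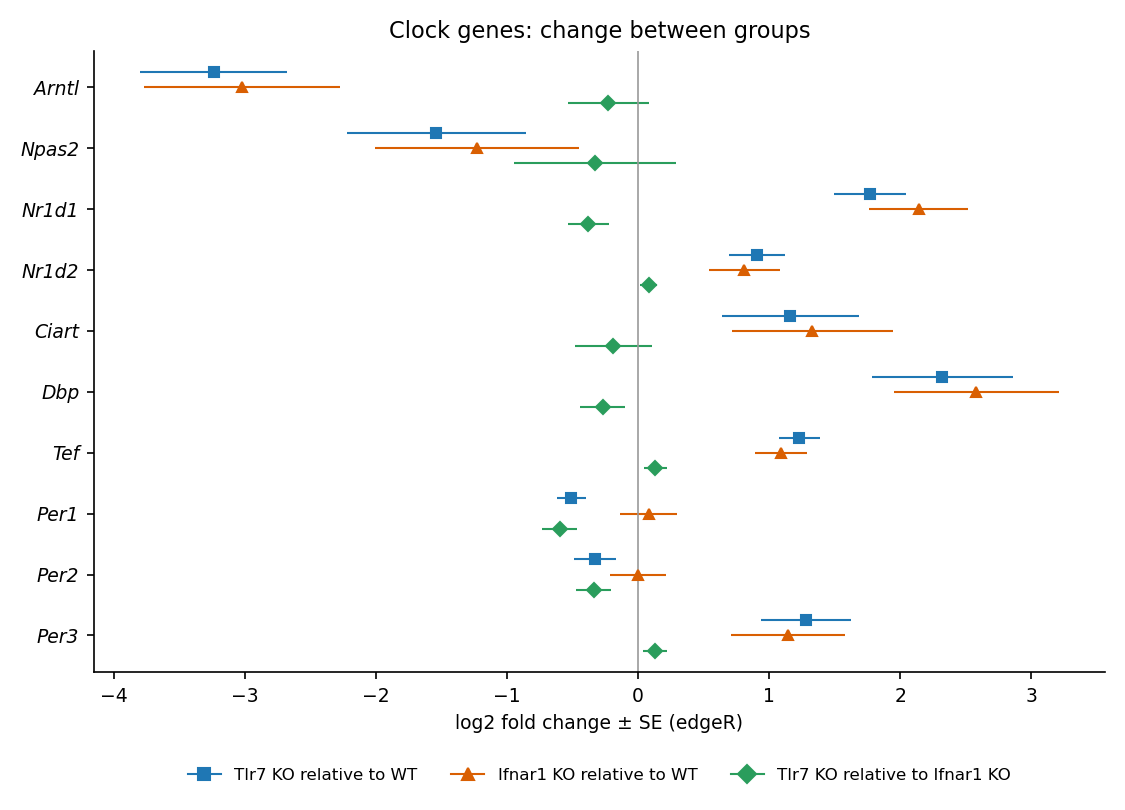
Log2 fold change (edgeR) of each clock gene in Tlr7 KO relative to WT, Ifnar1 KO relative to WT and Tlr7 KO relative to Ifnar1 KO, with bars of 1 SE. The values relative to WT run from -3.24 (Arntl) to 2.58 (Dbp), and those between the KO strains lie between -0.6 (Per1) and 0.13 (Tef and Per3).

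Between the KO strains only *Per1* did not overlap, with the highest *Tlr7* KO gland at 21.3 CPM and the lowest *Ifnar1* KO gland at 22.6 CPM, and 10.7% of all genes tested did not overlap (5.47% higher and 5.24% lower in *Tlr7* KO). Its log2 fold change in *Tlr7* KO relative to *Ifnar1* KO was -0.6 (SE 0.136). For the other 9 members this value lay between -0.38 (*Nr1d1*, SE 0.158) and 0.13 (*Tef* and *Per3*), and the median over the members was -0.25. With scaling by library size only *Tef* and *Per3* turned to -0.06 and *Nr1d2* from 0.08 to -0.12, and without *Ifnar1* KO 1 *Arntl* turned from -0.23 to 0.09 and *Npas2* from -0.33 to 0.2.

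A pair of indices describes the balance of these genes within each gland. The output index is the mean log2 CPM of *Dbp*, *Tef*, *Per3*, *Ciart*, *Nr1d1* and *Nr1d2* less that of *Arntl* and *Npas2*, and the late index is the log2 CPM of *Per2* less that of *Nr1d1*, each centred on the 11 mice. The output index was -0.83, -4.95 and -1.72 in WT 1 to 3, between 0.61 and 1.44 in *Tlr7* KO glands and 0.31, 1.16 and 1.14 in *Ifnar1* KO glands. The order from lowest was WT 2, WT 3, WT 1, *Ifnar1* KO 1, then *Tlr7* KO 5, 2, 3 and 1, then *Ifnar1* KO 3 and 2, then *Tlr7* KO 4. WT glands averaged -2.5 ± 2.17 (SD, n = 3). The average was 0.98 ± 0.31 (SD, n = 5) for *Tlr7* KO, and *Ifnar1* KO glands had 0.87 ± 0.49 (SD, n = 3). The members were picked for their differences between the groups. The separation of WT from KO glands on the indices follows in large part from that choice and is a description only. The 2 KO strains interleave, and neighbours among the KO glands differ by less than these SDs.

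The late index was 1.09, 2.05 and 1.68 in WT, between -1.01 and -0.12 in *Tlr7* KO, and -0.15, -1.2 and -0.48 in *Ifnar1* KO glands. WT 2 was at the end of both scales, followed by WT 3 and WT 1. The indices share *Nr1d1* with opposite signs, so their orders are not independent, and WT 2 had the lowest *Per2* of the WT mice, so that its late index came from its low *Nr1d1*. Counts of *Dbp* per count of *Arntl*, both of which enter the output index, were 9.09, 0.174 and 2.85 in WT and 40 to 121 in the KO glands. One sample per mouse cannot separate a shift in phase from a change in the depth of a rhythm.

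**Figure D3:**
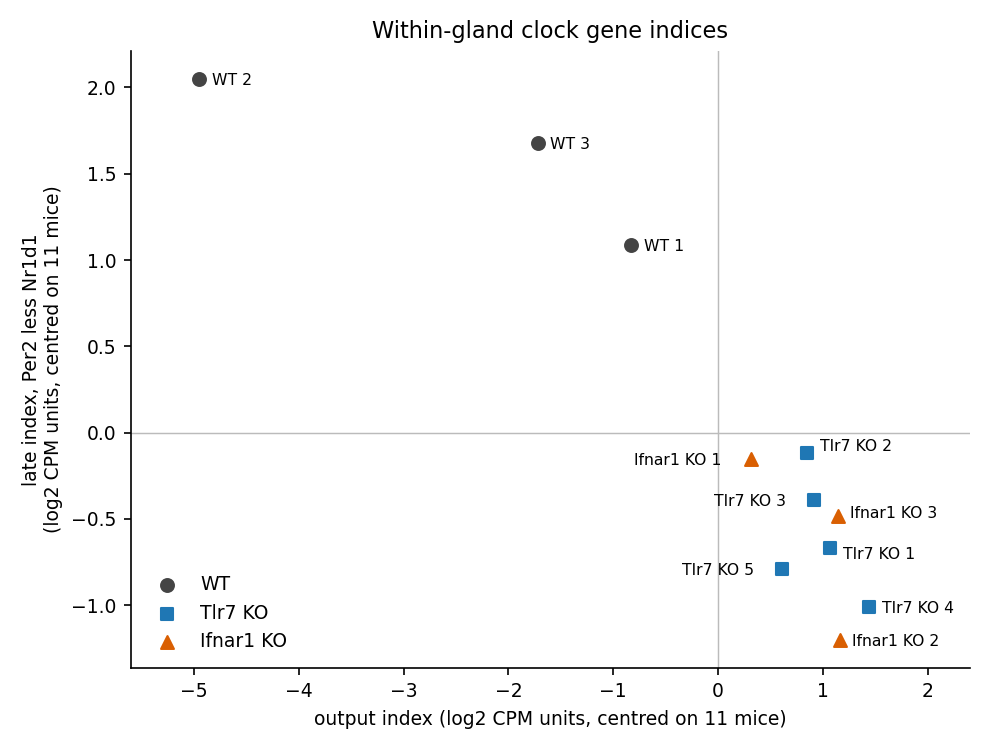
Output index (mean log2 CPM of Dbp, Tef, Per3, Ciart, Nr1d1 and Nr1d2 less that of Arntl and Npas2) against late index (Per2 less Nr1d1) for each of the 11 glands, both centred on the 11 mice. The 3 WT glands are spread from -0.83 to -4.95 on the output index, and the 8 KO glands lie together between 0.31 and 1.44. This separation follows in large part from how the genes were picked.

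The spread among WT mice was itself wide for these genes. Over the 10 members the SD of log2 CPM had a median of 0.93 among WT, 0.19 among *Tlr7* KO and 0.32 among *Ifnar1* KO mice, beside 0.25, 0.17 and 0.21 over all genes tested. WT 2 accounted for the extremes, as it was the lowest of the 11 mice for *Dbp*, *Tef*, *Per3*, *Nr1d1*, *Nr1d2* and *Ciart* and the highest for *Arntl* and *Npas2*. The lymphocyte marker sum of WT 2 was 70.49 CPM, beside 253.5 and 220.4 CPM in WT 1 and WT 3, and its part in this spread was not tested.

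Co-variation between mice of the same group was examined after subtracting group means. Over the 11 mice all 15 pairs of the 6 output genes were positively correlated (median Pearson r 0.88), and all 12 pairs of an output gene with *Arntl* or *Npas2* were negative (median -0.77). By a two-sided exact permutation of mice within groups with Benjamini-Hochberg adjustment over 45 pairs, 0 pairs passed, 12 having an unadjusted p under 0.05. For *Dbp* and *Nr1d2* r was 0.98 and Spearman's rho 0.77 (n = 11, exact permutation p = 0.0157 and 0.0528, adjusted p = 0.102 and 0.264). For *Dbp* and *Arntl* r was -0.88 and rho -0.6 (exact permutation p = 0.0181 and 0.119, adjusted p = 0.102 and 0.264).

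These correlations rested largely on WT 2. Without it the 15 output pairs stayed positive with a median r of 0.37, and 10 of the 12 pairs with *Arntl* or *Npas2* stayed negative with a median of -0.25. After leaving out the 2 mice farthest from the median of *Dbp* (WT 2 and WT 1), r was 0.77 for *Dbp* with *Nr1d2* and -0.44 for *Dbp* with *Arntl*. For *Nr1d1* with *Arntl* r was -0.92 over all mice and -0.77 without the 2 mice farthest from the median of *Nr1d1*, again WT 2 and WT 1. With 2 mice left out in this way, the 15 output pairs ran from -0.04 (*Per3* with *Nr1d2*) to the 0.77 of *Dbp* with *Nr1d2*. The 12 pairs with *Arntl* or *Npas2* ran from the -0.77 of *Nr1d1* with *Arntl* to 0.58 (*Ciart* with *Arntl*, without WT 2 and *Tlr7* KO 2). *Per1* was negative with all 6 output genes (r -0.61 to -0.28) and *Per2* positive with all 6 (0.34 to 0.7), and without WT 2 only 3 of these 12 pairs kept their sign.

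**Figure D4:**
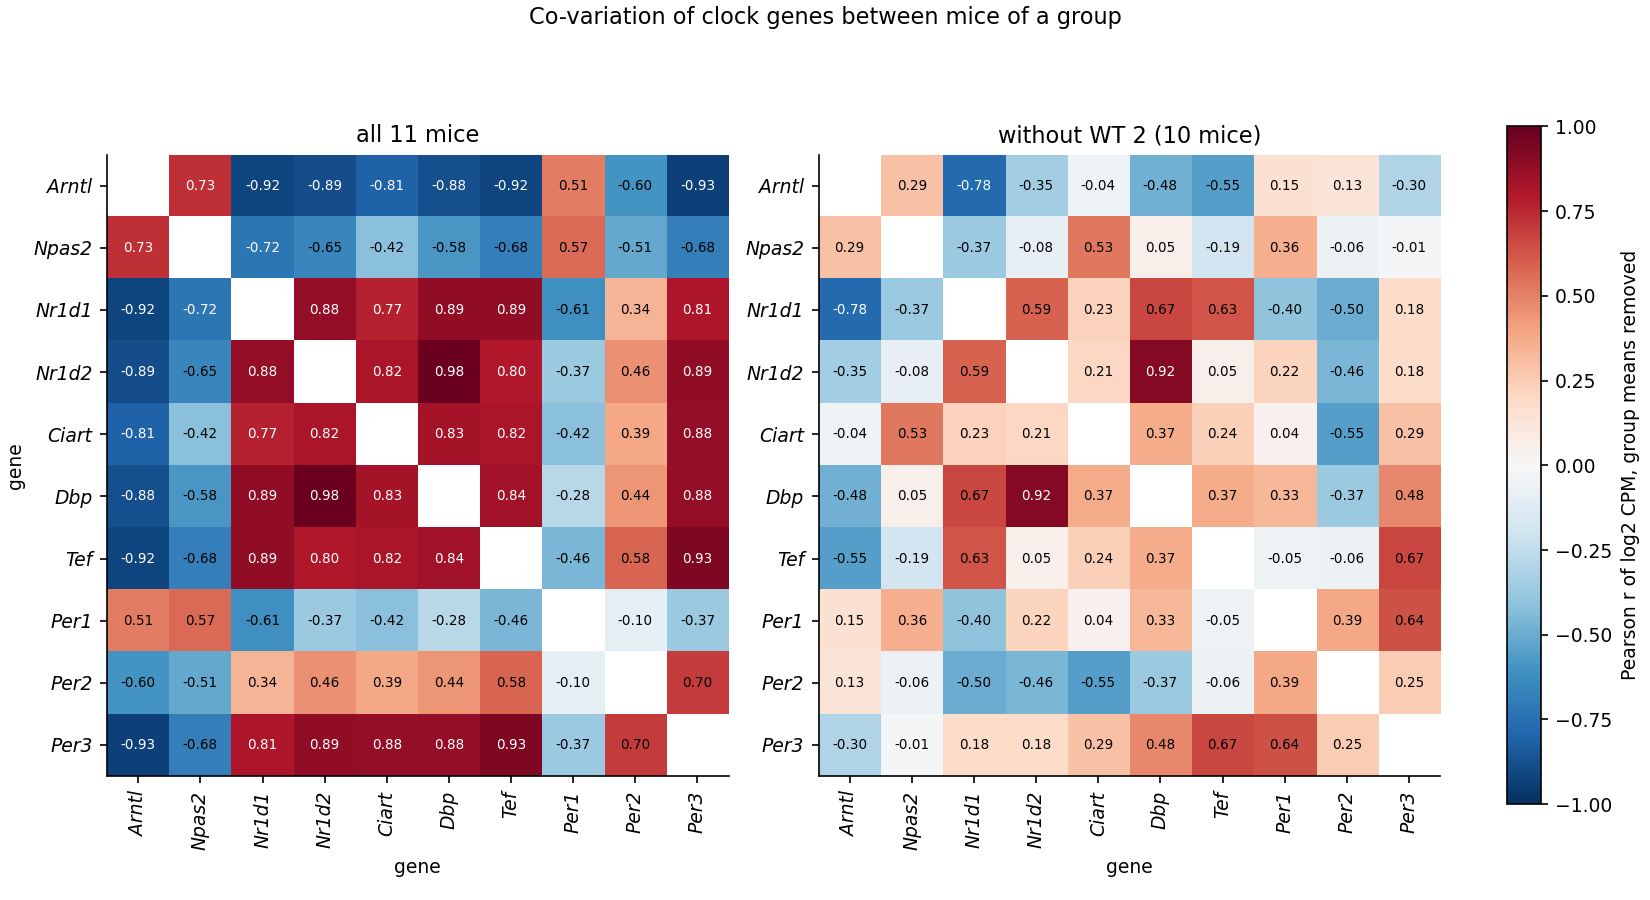
Pearson r of log2 CPM between clock genes after removal of group means, over all 11 mice (left) and without WT 2 (right). The blocks of output genes (median r 0.88) and of output genes with Arntl and Npas2 (median -0.77) are paler without WT 2 (0.37 and -0.25).

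The rest of the pathway was read from a list of 29 other clock genes, 28 of them tested. The list, kept as it was drawn up, spans activators, repressors, kinases, ubiquitin ligases and outputs of the clock, and it also holds *Tspan4*, which is not an established clock gene and was not called in any comparison. In *Tlr7* KO relative to WT, 5 rose and 4 fell (edgeR, adjusted p under 0.05), a share near the 32.8% of all genes called in this comparison (15.3% higher and 17.4% lower), and DESeq2 called 10. The median of the list was 0.02 on the log2 scale. The genes that rose were *Cry2* (log2 fold change 0.65, adjusted p = 0.00534), a repressor with the PER proteins, *Usp2* (0.82, adjusted p = 0.00826), a deubiquitinase of clock proteins, *Wee1* (0.66, adjusted p = 0.00293), a cell cycle kinase under E-box control, *Klf9* (0.41, adjusted p = 0.00995) and *Gsk3b* (0.23, adjusted p = 0.0341). With scaling by library size only, which moved the median of all genes to -0.54, *Gsk3b* and *Klf9* turned to -0.25 and -0.06 and the calls of *Cry2*, *Usp2* and *Wee1* were lost. Among those that fell were *Nfil3* (-2.14, adjusted p = 0.00411), *Nampt* (-0.54, adjusted p = 0.00899) and *Nono* (-0.26, adjusted p = 0.0385).

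*Nfil3*, whose product represses the D-boxes that DBP and TEF activate, was at 8.62, 26 and 10.2 CPM in WT, at 2.06 to 5.13 CPM in *Tlr7* KO (median 3.48) and at 8.68, 5 and 8.12 CPM in *Ifnar1* KO glands. *Tlr7* KO glands lay below all WT glands, and *Ifnar1* KO glands overlapped with them (log2 fold change -1.05, adjusted p = 0.123). The highest mouse was WT 2. *Nfil3* is also expressed by lymphocytes, whose marker sum was lower in both KO strains, and the part of that difference was not tested.

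Among the genes named whether called or not, *Clock* overlapped between groups, with 20.3, 28.4 and 20.2 CPM in WT and 20.8 to 42.9 CPM in KO glands (log2 fold change 0.57 with an adjusted p = 0.0536 for *Tlr7* KO, and 0.35 with an adjusted p = 0.321 for *Ifnar1* KO, both by edgeR). In *Tlr7* KO it was called by DESeq2, and by edgeR without WT 2, *Tlr7* KO 1 or *Tlr7* KO 5. *Cry1*, the last gene of the series to peak, was highest in WT 2 at 13.2 CPM and lay between 6.74 and 9.76 CPM in all other mice. It was at -0.12 on the log2 scale in *Tlr7* KO (adjusted p = 0.602) and at -0.36 in *Ifnar1* KO (adjusted p = 0.28) by edgeR, the former moving to -0.55 (adjusted p = 0.0431) with scaling by library size only. *Cry2* was at 14.8, 14.3 and 14.8 CPM in WT, at 17.5 to 26.9 CPM in *Tlr7* KO and at 29.7, 23.5 and 27.3 CPM in *Ifnar1* KO glands, so unlike the members it hardly varied among WT mice. *Hlf*, the PAR bZIP relative of *Dbp* and *Tef*, was at -0.31 on the log2 scale in *Tlr7* KO (adjusted p = 0.453) and at -0.22 in *Ifnar1* KO (adjusted p = 0.646), and its groups overlapped at 0.7 to 1.75 CPM.

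In *Ifnar1* KO relative to WT, 7 of the 28 genes were called, 5 higher and 2 lower, beside 19.2% of all genes (6.76% higher and 12.4% lower), and the median of the list was 0.07. DESeq2 called 9. The genes that rose were *Cry2* (0.85, adjusted p = 0.0207), *Usp2* (1.04, adjusted p = 0.0261), *Bhlhe41* (0.93, adjusted p = 0.0229), a repressor at E-boxes, *Wee1* (0.73, adjusted p = 0.0241) and *Gsk3b* (0.39, adjusted p = 0.0473). *Timeless*, a replication fork protein, fell (-1.96, adjusted p = 0.0271) on 6 to 11 counts per *Ifnar1* KO gland, and so did *Nampt*, which makes NAD (-1.03, adjusted p = 0.0207). *Bhlhe41* was at 0.52 in *Tlr7* KO (adjusted p = 0.0648). Without *Ifnar1* KO 1 or *Ifnar1* KO 3, and without WT 1, 0 of these genes passed, and only *Nampt* passed without WT 3. With scaling by library size only the 5 that rose were not called. In *Tlr7* KO the calls of *Cry2*, *Usp2*, *Wee1*, *Klf9*, *Nfil3* and *Nampt* were kept with each of the 8 mice left out, while *Gsk3b* and *Nono* each kept theirs in 2 of 8.

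Between the KO strains edgeR called 0 of the 28 genes, with 9 at an unadjusted p under 0.05, and DESeq2 called *Nfil3* and *Nampt*. *Nfil3* had a log2 fold change of -1.1 in *Tlr7* KO relative to *Ifnar1* KO (edgeR, adjusted p = 0.0708), and *Nampt* of 0.47 (adjusted p = 0.0569). Of all genes tested, 1.79% were called.

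**Figure D5:**
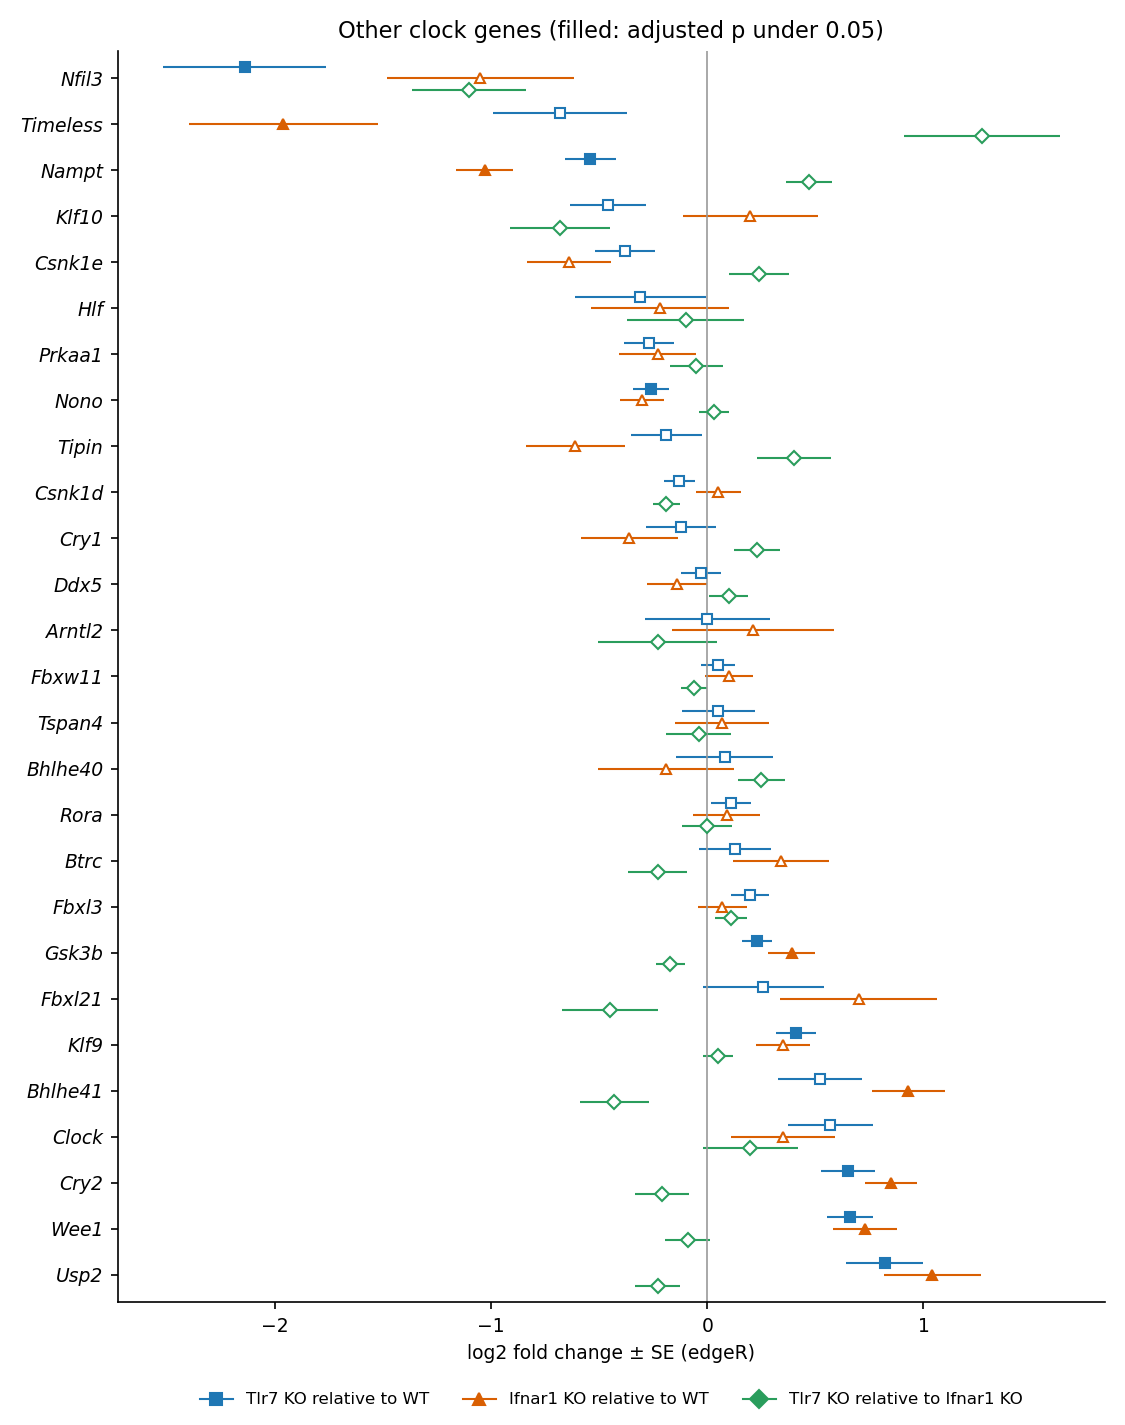
Log2 fold change (edgeR, bars of 1 SE) of the other clock genes reported here, with filled symbols for an adjusted p under 0.05. Nfil3 (-2.14) and Usp2 (0.82) are at the ends in Tlr7 KO relative to WT, and no symbol is filled for Tlr7 KO relative to Ifnar1 KO.

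Glucocorticoids set the phase of peripheral clocks, and a list of 12 genes that respond to them was read in the same fits. In *Tlr7* KO relative to WT, 2 rose and 7 fell, beside 32.8% of all genes called, with a median of -0.47 (-0.04 over all genes). *Fkbp5*, a chaperone of the glucocorticoid receptor, rose (log2 fold change 1.16, adjusted p = 0.00138), while *Pdk4* (-2.9, adjusted p = 0.0036), *Tsc22d3* (-1.17, adjusted p = 0.00063), *Sgk1* (-0.82, adjusted p = 0.0326) and *Mt2* (-0.73, adjusted p = 0.00362) fell. In *Ifnar1* KO 0 rose and 7 fell, beside 19.2% of all genes called, with a median of -0.71 (-0.02 over all genes), and DESeq2 called 9, with *Fkbp5* higher (0.67, adjusted p = 0.0221, beside 0.0722 with edgeR). Those that fell included *Pdk4* (-2.71, adjusted p = 0.023), *Cdkn1a* (-1.78, adjusted p = 0.0364), *Mt2* (-1.74, adjusted p = 0.0216), *Tsc22d3* (-1.04, adjusted p = 0.023) and *Ddit4* (-0.71, adjusted p = 0.0229). *Fkbp5* was at 83.4 to 122 CPM in WT, 201 to 262 CPM in *Tlr7* KO and 126 to 210 CPM in *Ifnar1* KO glands, so that it and *Tsc22d3* (23.1 to 33.5 CPM in WT, 11.5 to 17.5 CPM in KO glands) moved in opposite directions in *Tlr7* KO. Between the KO strains *Mt1*, a metallothionein, rose in *Tlr7* KO (0.7, adjusted p = 0.00301), from 13.6 to 15.7 CPM in *Ifnar1* KO to 21.8 to 24.8 CPM in *Tlr7* KO glands, a call lost with scaling by library size only. DESeq2 called 3 there, with *Fkbp5* (0.48, adjusted p = 0.044) and *Mt2* (0.99, adjusted p = 0.00322) also higher in *Tlr7* KO. Without *Ifnar1* KO 2 edgeR called both as well (0.67, adjusted p = 0.0312, and 1.2, adjusted p = 0.0236). The calls in *Ifnar1* KO relative to WT were not kept with any of WT 1, WT 3 and *Ifnar1* KO 1 and 3 left out, and that of *Sgk1* was lost in 6 of the 8 left-out-mouse fits of *Tlr7* KO. The lymphocyte marker sum was lower in both KO strains, and its part in these changes was not tested.

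The genes whose levels ran most closely with *Dbp* between mice of a group were taken from 7496 genes that averaged 5 CPM or more, the 10 members left out, by Pearson r over the 11 mice after removal of group means. The highest were *Sos2* (r 0.956), *Hnrnpdl* (0.931), *Lpo* (0.923), which encodes the lactoperoxidase of tears, *Hnrnpa1* (0.921) and *Chac1* (0.92). The lowest were *Grpel2* (-0.955), *Tent5c* (-0.95), *Gm6206* (-0.944), *Ilkap* (-0.941) and *Gm4737* (-0.928). Without WT 2 the r of the 10 lay between 0.68 and 0.86 for the former 5 and between -0.89 and -0.72 for the latter.

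With *Arntl* the highest r were those of *Stk11* (0.973), *Tm2d1* (0.961), *Klhl7* (0.959), *Castor2* (0.957) and *Pmm1* (0.957), and the lowest those of *Ikbkb* (-0.973), *Sparc* (-0.972), *Col3a1* (-0.969), *Tyk2* (-0.964) and *Hnrnpdl* (-0.962). *Hnrnpdl* is the only gene on both sets, with opposite signs. The 11 values share the same WT 2 library, which lies far out for *Arntl* and *Dbp* alike. Without WT 2 the r with *Arntl* lay between 0.73 and 0.93 for the 5 highest and between -0.83 and -0.73 for the 5 lowest. Both sets were picked as the extremes of 7496 genes over 11 mice, so high r values follow in part from the choice.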

How the data were processed

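Whole lacrimal gland RNA of 3 WT, 5 *Tlr7* KO and 3 *Ifnar1* KO male NOD mice was sequenced, with 1 library per mouse. The table used held estimated counts, which the authors made with salmon and tximport and deposited as whole numbers. Although called normalized, they sum to unequal totals per mouse and were taken as unscaled counts. Another deposited table of counts, for which the submitters' processing notes name HISAT2 2.1.0 and mm10, was an alternative, and 1 sample column of it was not used. Totals were 20512315 to 28814250 counts per mouse, and 12233586 to 16621073 in the other table. Alternatives were other scalings, filters and tools, a single fit of all mice, that table, the replicate block and each mouse left out.

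Genes with at least 30 counts summed over the WT mice (13937) were tested with edgeR 4.0.16 in R 4.3.3 (TMM, quasi-likelihood, separate fits per pair of groups, Benjamini-Hochberg over all genes tested), with DESeq2 1.42.0 as an alternative. The fits were tested on simulated data. SE is the fold change over the root of F. Log2 CPM used a prior count of 2, or 0.5 as an alternative. Nothing says whether mice shared litters or cages. The p-values of the fits treat the mice as independent, which could not be checked, and rest on the spread between these mice. The members and lists were chosen with earlier results of these data known. Some genes of the lists are counted but not reported here by name. Named otherwise were the members, other clock genes that were called, *Clock*, *Cry1*, *Cry2*, *Nfil3*, *Hlf* and *Bhlhe41*, up to 5 called genes of each further list and comparison, and the 5 highest and lowest correlates of *Dbp* and *Arntl*.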

Additional observations from a re-analysis of the deposited data

Results flagged for a closer look

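A single gland of the *Tlr7* KO group, *Tlr7* KO 2, stood far from the other 4 for 7 genes, its gap to the nearest mouse being more than 0.71 of the range of the group. In all 70 genes were examined in this way, each over the 5 mice of this group, and chance alone would mark about 1 in 20. Of these genes 6 encode heat shock proteins. *Hspa1a* was at 15.6 CPM in this mouse and at 2.43 to 3.76 CPM in the others, *Hspa1b* at 23.4 CPM (3.6 to 6.84 in the others), *Hsph1* at 49.8 CPM (14.1 to 19.3), *Hsp90aa1* at 109 CPM (44.7 to 50), *Hspa8* at 232 CPM (83.6 to 108) and the co-chaperone *Dnajb1* at 14.1 CPM (8.08 to 8.99). The metallothionein *Mt2* was at 7.34 CPM beside 5.31 to 5.85 CPM. The same mouse had the lowest *Dbp*, *Nr1d1*, *Nr1d2*, *Ciart*, *Per1*, *Per3* and *Npas2* of the *Tlr7* KO glands and the highest *Arntl* and *Per2*. Its lymphocyte marker sum (61.02 CPM) was also the highest of them. Whether these go together was not tested, and no clock gene was marked in this way.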

How the results depend on the processing

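Over DESeq2, other scalings and filters, a fit of all 11 mice, the replicate block, the other count table and each mouse left out, 438 fold changes of the 10 clock genes stayed within the spread between mice of the values given and 12 moved further. That spread was wide among WT mice (SD of log2 CPM 1.55 for *Dbp* and 1.38 for *Arntl*), so large shifts still counted as within it. This split therefore says little about stability. Relative to WT, all members but *Per1* and *Per2* kept their sign in every setting in which they had a value, but sizes moved. In *Ifnar1* KO *Per1* kept its sign in 11 of 14 settings and *Per2*, with a main value of 0, in 2 of 14. In *Tlr7* KO the log2 fold change of *Dbp* ran from 1.68 with library size only to 3.28 without WT 1. There *Per3* was at 0.67, *Ciart* at 0.54 and *Nr1d2* at 0.32 with library size only. In *Ifnar1* KO *Dbp* was at 3.54 without WT 1, and *Per3* at 0.72 and *Nr1d2* at 0.44 with library size only. The count of members without overlap relative to WT was between 7 and 8 with each mouse left out, and between 1 and 3 for the KO strains. Leaving out a mouse cannot bring overlap to groups that had none. The lower ends, which equal the counts with all mice, therefore say nothing about stability. Results relative to WT rest on 3 control mice, of which WT 2 lies far out, and the calls in *Ifnar1* KO are the less stable. The cause of each shift was not tested.

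In *Tlr7* KO relative to WT, 2601 to 6595 genes and 7 to 14 other clock genes were called with a mouse left out, 4566 and 9 with none. The lowest count of genes was without WT 3 and the highest without WT 2, where *Bhlhe40* was at -0.22, beside 0.08 with all mice and 0.32 without WT 1. With library size only, *Gsk3b* was at -0.25, *Klf9* at -0.06 and *Mt1* at -0.15. In *Ifnar1* KO relative to WT, the main counts were 2677 and 7. They were 0 to 4643 and 0 to 11 with a mouse left out, the count of genes being 0 without *Ifnar1* KO 1 or 3, 13 without WT 1 and 104 without WT 3. They were 1340 and 3 with library size only, and 5124 and 12 in a fit of all 11 mice. Between the KO strains 250 genes and 0 other clock genes were called, 577 and 2 with DESeq2, 93 genes in a fit of all 11 mice, 1 other clock gene with library size only and 1 in the other count table. With a mouse left out they were 85 to 877 and 0 to 2, the genes being 877 without *Ifnar1* KO 2 and at most 144 without any other mouse.

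Of the correlations, 2 pairs passed with library size only, 1 in the other count table and 0 to 1 with a mouse left out. On the output index 4 of 11 mice, the WT mice among them, kept their rank with the other count table, and the order of the other 10 is the same by construction when a mouse is left out. *Npas2* had no value where it fell under the filter.

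With the replicate number as a block, 17 genes and 0 other clock genes were called in *Tlr7* KO, 0 and 0 in *Ifnar1* KO, and 533 genes between the KO strains. Deviations from the group means of mice with the same number had correlations of -0.14, -0.4 and 0.03 between WT and *Tlr7* KO, and of -0.16, -0.44 and -0.28 between WT and *Ifnar1* KO. Between the KO strains they were 0.06, 0.34 and 0.26, and not every mouse correlated best with its own number. The number was taken as a name, not as a pairing.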

Other observations

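Temperature is another signal that acts on peripheral clocks. Of 9 temperature-responsive genes, edgeR called 0 in *Tlr7* KO relative to WT (1 at an unadjusted p under 0.05, and *Hspa8* with DESeq2 and with a fit of all 11 mice), 0 in *Ifnar1* KO relative to WT (3 unadjusted, and *Rbm3* and *Hspa8* with DESeq2) and 0 between the KO strains (1 unadjusted, 0 with DESeq2). Without *Tlr7* KO 2, the mouse with high heat shock genes, edgeR called 4 of the 9 lower in *Tlr7* KO than in WT. In that fit 4298 of all genes were called in either direction (4566, or 32.8%, with all mice). The 4 were *Hspa8* (-1.22), *Hsph1* (-0.58), *Hsp90aa1* (-0.57) and *Dnajb1* (-0.41). *Tlr7* KO 2 was marked for high values of these same genes, so leaving it out lowers their mean and spread by construction. These 4 calls are therefore a description and no test. *Hspa8* was also called in *Ifnar1* KO without WT 2 (-0.72, adjusted p = 0.0445). The cold-inducible genes *Cirbp* and *Rbm3* had log2 fold changes of -0.07 and -0.2 in *Tlr7* KO (adjusted p = 0.795 and 0.196, edgeR) and 0.09 and -0.45 in *Ifnar1* KO (adjusted p = 0.803 and 0.0802). With scaling by library size only *Rbm3* was lower in both, at -0.67 (adjusted p = 0.00861) and -0.72 (adjusted p = 0.04), and in *Ifnar1* KO also in a fit of all 11 mice (-0.44, adjusted p = 0.0216).

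Of 8 immediate-early genes, which rise within minutes of cell stimulation, 7 were tested. DESeq2 called *Fos* and *Egr1* in *Tlr7* KO and *Fos*, *Egr1*, *Junb*, *Jun* and *Nr4a1* in *Ifnar1* KO relative to WT, and edgeR called 1 and 2, beside 32.8% and 19.2% of all genes. *Fos* fell in *Tlr7* KO relative to WT (-0.94, adjusted p = 0.0233, edgeR), and the call was lost without WT 1, WT 3, *Tlr7* KO 1 or *Tlr7* KO 3. In *Ifnar1* KO *Jun* fell (-0.97, adjusted p = 0.0391) and *Nr4a1* rose (0.52, adjusted p = 0.0379), and neither call was kept with WT 1, WT 3 or 1 of *Ifnar1* KO 1 and 3 left out, nor that of *Nr4a1* without *Ifnar1* KO 2. Without WT 2, edgeR also called *Egr1* (-1.5, adjusted p = 0.00477) and *Junb* (-0.34, adjusted p = 0.0192) in *Tlr7* KO (without *Tlr7* KO 2 it was *Nr4a1*, at 0.4, adjusted p = 0.0228), and *Egr1* (-2.23, adjusted p = 0.0139), *Fos* (-1.4, adjusted p = 0.0217) and *Junb* (-0.67, adjusted p = 0.0206) in *Ifnar1* KO. Between the KO strains edgeR called 0, with 3 at an unadjusted p under 0.05, and DESeq2 called *Atf3*.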
